A study of Mus musculus with 64 samples.

Results

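The Rab GTPases and sorting nexins of mouse microglia were taken as every gene of the expression table whose symbol starts with Rab or Snx followed by a digit, which gave 52 of 5647 genes. They comprised 29 Rab GTPases, 5 proteins named after a Rab that they bind or regulate (Rab3ip, Rab3il1, Rab3gap1, Rab11fip5 and Rab5if) and 18 sorting nexins. Rab4a and Snx27 were not analysed here. Microglia, the resident macrophages of the brain, had been sorted as live CD11b+ CD45low cells from wild-type C57BL/6J mice, and each of 64 mice gave 1 RNA sequencing library. PBS had been given to 4 females of 3 months, 2 of 6 months, 3 of 9 months, 4 of 12 months, 5 of 14 months, 5 of 16 months and 3 of 24 months. It had also been given to 4 males of 3 months, 4 of 6 months, 4 of 9 months, 2 of 12 months, 4 of 16 months, 5 of 19 months and 4 of 24 months. Females of 3, 14 and 24 months with 3, 5 and 3 mice had instead received lipopolysaccharide (LPS), a component of the bacterial outer membrane that activates innate immune cells, by intraperitoneal injection. Their cells were taken within hours of the injection, and the study cautions that this may be an early stage of the response. The PBS-treated females of 3, 14 and 24 months served both as ages of the series and as controls for LPS, so the results of both experiments share these libraries.

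Rab GTPases are small switch proteins that sit on the membranes of vesicles and organelles in their GTP-bound form and recruit the motors, tethers and kinases that move, dock and fuse these membranes. Sorting nexins bind phosphoinositide lipids of endosomes through a PX domain, and several of them bend membrane into tubules that return receptors to the cell surface or to the Golgi. Microglia depend on these routes to take up debris, mature phagosomes into lysosomes, recycle receptors and secrete cytokines.

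The members that responded to LPS at 3 months with a rise were Rab20, Snx18 and Snx10, and the sequences around their starts are shown because the LPS comparison turns on them. They are RefSeq sequences of GRCm38.p6 (the assembly also named mm10), from 250 bases before to 50 bases after an annotated start, written 5′ to 3′ on the strand of the gene. Rab20 is at chr8:11478591-11478890 and Snx18 at chr13:113618515-113618814, both on the minus strand. Snx10 has overlapping windows on the plus strand. The upstream one shown is chr6:51523834-51524133 and the downstream one is chr6:51524010-51524309. A window further upstream, chr6:51523653-51523952, held none of the motifs named below and is not printed. Capitals mark an E-box (CACGTG) in Rab20 and Snx18, an AP-1 site (TGANTCA) in the upstream Snx10 window and an ISRE core (GAAANNGAAA, here on the other strand) in the downstream one.
Rab20: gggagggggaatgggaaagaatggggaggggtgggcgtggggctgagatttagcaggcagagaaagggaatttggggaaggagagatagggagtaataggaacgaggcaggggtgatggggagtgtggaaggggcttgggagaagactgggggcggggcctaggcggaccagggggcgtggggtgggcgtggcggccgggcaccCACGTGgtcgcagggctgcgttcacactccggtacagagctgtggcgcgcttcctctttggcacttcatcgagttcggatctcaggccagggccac
Snx18: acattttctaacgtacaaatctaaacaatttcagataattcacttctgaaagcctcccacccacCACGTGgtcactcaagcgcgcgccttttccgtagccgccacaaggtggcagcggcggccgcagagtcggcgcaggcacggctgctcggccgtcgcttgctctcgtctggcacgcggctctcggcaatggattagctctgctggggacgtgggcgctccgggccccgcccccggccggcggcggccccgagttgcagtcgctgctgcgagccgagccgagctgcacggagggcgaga
Snx10 upstream window: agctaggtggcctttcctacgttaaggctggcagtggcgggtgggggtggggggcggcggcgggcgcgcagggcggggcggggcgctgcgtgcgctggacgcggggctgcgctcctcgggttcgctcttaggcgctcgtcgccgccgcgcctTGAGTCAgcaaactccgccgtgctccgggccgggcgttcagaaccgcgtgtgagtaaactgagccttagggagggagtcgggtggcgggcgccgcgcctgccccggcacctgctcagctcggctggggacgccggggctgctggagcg
Snx10 downstream window: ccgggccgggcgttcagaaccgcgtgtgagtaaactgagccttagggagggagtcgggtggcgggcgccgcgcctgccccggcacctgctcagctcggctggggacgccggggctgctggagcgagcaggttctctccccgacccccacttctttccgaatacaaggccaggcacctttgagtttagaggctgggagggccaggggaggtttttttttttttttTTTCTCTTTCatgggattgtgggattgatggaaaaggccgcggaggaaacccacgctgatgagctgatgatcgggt
Both strands of 32851 such windows were searched for these 3 motifs and for the NF-kB site, and no matches of different motifs overlapped in the windows shown. An E-box was found in 7.15% of windows, an AP-1 site in 7.81%, an ISRE core in 3.44% and an NF-kB site in 4.51%. Of the 46 members with a window, 8 held an E-box (Rab20, Rab24, Rab27a, Rab3il1, Rab5a, Snx18, Snx5 and Snx8), against 609 of the 4571 genes of the table with a window (13.3%). An AP-1 site was found in Snx10 and Snx29, an ISRE core in Snx10 and an NF-kB site in Rab28. A match describes letters in a window and says nothing about binding.

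Values were compared as batch-adjusted FPKM, a fragment level relative to transcript length and library size, and their log2(value + 1) was tested with limma over all 5647 genes. A gene was called, for higher or lower levels, at an adjusted p under 0.05 together with a change of over 1.5-fold. Library sums of these values ranged from 408457 to 554459, and the number of reads behind them is unknown. All 8 microglial markers looked for were present, and their summed level in PBS-treated females was between 20670 and 22184 at 3 months, 13332 and 14708 at 12 months, 14059 and 16576 at 14 months, 12708 and 17293 at 16 months and 15942 and 17899 at 24 months. After LPS it was between 15371 and 18571 at 3 months, 12833 and 16246 at 14 months and 12769 and 17039 at 24 months. The 7 markers of border-associated macrophages summed to between 522 and 644 in PBS-treated females of 3 months and 260 and 322 at 12 months. Neutrophil markers were present as well, although the sort for low CD45 should remove neutrophils, and all 10 listed genes were above 0 in every group. Their summed level was between 6759 and 18291 in 3-month-old PBS-treated females, 1788 and 5106 at 12 months, 2129 and 6296 at 14 months, 2570 and 15208 at 16 months and 3089 and 8205 at 24 months. After LPS it was between 1972 and 3553 at 3 months, 1784 and 4160 at 14 months and 3860 and 15827 at 24 months. The 3 measured T and NK cell markers, Nkg7, Ccl5 and Ms4a4b, summed to between 42.0 and 54.0 in PBS-treated females of 3 months. After LPS at that age they summed to between 173 and 270. The study counts Ccl5 among interferon response genes that it measured in microglia, so this sum need not reflect T or NK cells. With PBS the range was 97 to 207 at 12 months, 104 to 312 at 14 months, 113 to 306 at 16 months and 222 to 318 at 24 months. The 4 measured monocyte markers were Ly6c2, Ccr2, Plac8 and S100a4. In PBS-treated females they summed to between 90 and 200 at 3 months and 104 and 167 at 12 months. The range was 62 to 187 at 14 months, 144 to 465 at 16 months and 130 to 196 at 24 months. After LPS it was 110 to 202 at 3 months, 58 to 431 at 14 months and 213 to 366 at 24 months. Whether these RNAs take part in the results below was not tested. In sorted cells measured in bulk, a lower level of a gene may come from fewer cells of a type or from less RNA per cell, and these cannot be told apart.

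The family covered a wide range of levels per length in PBS-treated microglia. Rab3il1, an exchange factor for Rab8 and Rab3A, was the highest with a mean of 486 ± 101 FPKM (SD, n = 53 libraries), the 98th highest of all genes. It was followed by Rab7, the Rab of late endosomes and lysosomes, at 218 ± 36.7 FPKM, then Snx5 at 182 ± 42.2, Rab14, which acts between the Golgi and endosomes, at 182 ± 23.3 and Snx3, a retromer adaptor, at 123 ± 14.7. The neighbours Rab7, Snx5 and Rab14 overlapped in their libraries. The lowest means were those of Snx19 at 10.8 ± 2.92 FPKM, Rab3ip at 10.8 ± 3.39, Rab2a at 10.8 ± 4.0, Rab5c at 10.2 ± 4.28 and Rab12 at 10 ± 3.89, which is where the table itself ends, since its lowest gene mean was 10. These 5 overlapped throughout in their libraries.

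**Figure D1:**
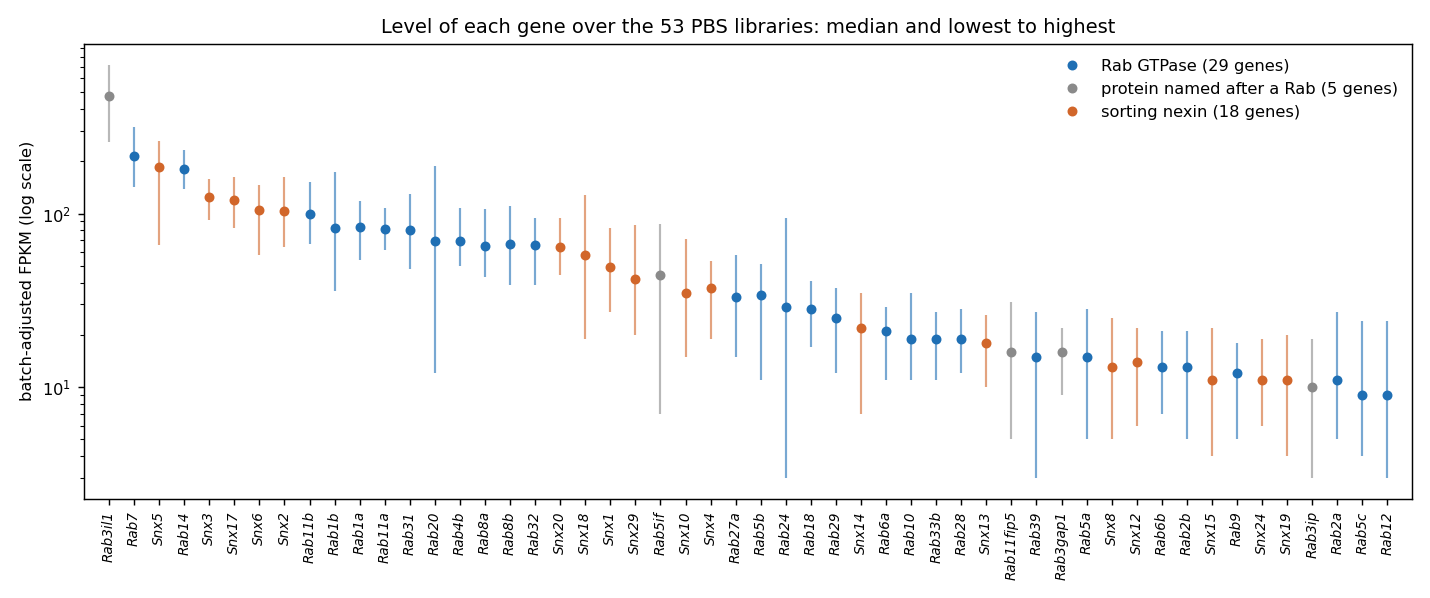
Level of each of the 52 genes over the 53 PBS libraries, in batch-adjusted FPKM on a log axis, ordered by mean; points are medians and lines run from the lowest to the highest library, in blue for Rab GTPases, grey for proteins named after a Rab and orange for sorting nexins. Rab3il1 stands above the rest with a lowest library of 257, and Rab20, Rab24, Rab5if and Snx18 have long lines for their level.

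Some close relatives were expressed at unequal levels and others at like levels. Among the Rab5 proteins, which mark early endosomes, Rab5b had a mean of 32.1 ± 8.21 FPKM, Rab5a 15.7 ± 4.74 and Rab5c 10.2 ± 4.28. Rab11b was at 102 ± 18.8 and Rab11a at 81.7 ± 11.4, both of the recycling endosome. Rab4b, of fast recycling, was at 70.0 ± 12.6 and Rab32, which acts on lysosome-related organelles and mitochondria, at 66.6 ± 12.4. Rab1b was at 90.3 ± 27.6 and Rab1a at 83.8 ± 14.4, which carry cargo from the endoplasmic reticulum to the Golgi, and Rab8a at 68.2 ± 14.3 and Rab8b at 66.8 ± 14.0 overlapped as fully. Rab6a at 20.8 ± 4.03 and Rab6b at 12.4 ± 3.31, of the Golgi, and Rab2a and Rab2b, at 10.8 and 12.4 ± 3.28, were low. Of the sorting nexins with a BAR domain that form tubules with the retromer, Snx5 was followed by Snx6 at 105 ± 19.2, Snx2 at 105 ± 22.0 and Snx1 at 51.4 ± 10.4. Reads shared between near-identical stretches of such relatives were divided by the authors' estimate, so single values of a pair are less certain than its sum.

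Over the 14 PBS groups most members kept within a narrow range. The highest group mean was less than 2 times the lowest for 38 of 52 members (73.1%), close to the 73.6% of all genes, and the median ratio was 1.67 for members and 1.73 for all genes. Rab11a had the smallest ratio, 1.28, with group means from 74.2 to 94.8 FPKM. Rab24, a Rab linked to autophagy, had the largest, 6.00, and Rab5if, named as a Rab5 interacting factor, and Rab20 followed with 3.91 and 3.51. Of the 52 members 12 were called in at least 1 of 21 comparisons (23.1%) and 40 in none, while 35.4% of all genes were called in at least 1.

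LPS raised Rab20, a Rab of phagosomes and endosomes in macrophages, together with Snx18 and Snx10 in microglia of 3-month-old females and lowered Rab3ip. Of the members 4 were called at this age (7.69%), where 11.2% of all genes were called, and the members' share was thus not above the background. The 3 that rose compare with 6.16% of all genes, and the 1 that fell with 5.08%. All 4 calls were also made with libraries scaled by median ratios or to equal totals, each of which gave 5 calls. The median log2 fold change was -0.03 for members and -0.14 for all genes, and by class it was 0.08 for the Rab GTPases, -0.16 for the sorting nexins and -0.01 for the proteins named after a Rab.

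Rab20 was at 39, 47, 50 and 46 FPKM in the PBS-treated mice of 3 months and at 122, 121 and 120 after LPS. The groups lay far apart, and each LPS library was over 2 times the highest PBS library. The log2 fold change was 1.40 (SE 0.25, adjusted p = 0.000622). At 24 months Rab20 was at 40, 49 and 65 with PBS and at 132, 100 and 68 with LPS, which just did not overlap, with a log2 fold change of 0.93 (SE 0.27, adjusted p = 0.0322). This call was lost without either of PBS replicates 1 and 2 or LPS replicates 1 and 2, where the value lay between 0.70 and 0.91. At 14 months the PBS libraries were spread from 43 to 117 with a median of 65, and the LPS libraries were at 125, 89, 126, 135 and 128. Most LPS libraries lay above all PBS libraries, but the value of 0.74 (SE 0.21, adjusted p = 0.0585) did not pass the test.

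Snx18, a sorting nexin of endocytosis and autophagosome formation, was at 42, 39, 46 and 53 FPKM with PBS and at 71, 102 and 89 with LPS at 3 months. All LPS libraries were higher than all PBS libraries, and the log2 fold change was 0.94 (SE 0.22, adjusted p = 0.00701), which without LPS replicate 2 was 0.82 and no longer passed. At 24 months it was at 27, 35 and 41 with PBS and at 83, 73 and 68 with LPS. The groups again did not overlap, and the log2 fold change was 1.11 (SE 0.24, adjusted p = 0.00637), which held without any 1 library at between 0.96 and 1.28. At 14 months the PBS libraries of Snx18 were at 63, 54, 43, 83 and 107 and the LPS libraries at 98, 89, 90, 75 and 78, which overlapped, with a value of 0.36 (SE 0.18, adjusted p = 0.364).

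Snx10, a sorting nexin required for endosome and lysosome function in osteoclasts and macrophages, was at 29, 28, 28 and 31 FPKM with PBS and at 48, 56 and 55 with LPS at 3 months. The groups were well separated, with a log2 fold change of 0.85 (SE 0.20, adjusted p = 0.00614). At 14 months the groups overlapped, with PBS libraries at 50, 34, 62, 41 and 34 and LPS libraries at 41, 53, 55, 57 and 40, and the value was 0.17 (SE 0.16, adjusted p = 0.647). At 24 months they touched, with PBS libraries at 29, 33 and 29 and LPS libraries at 55, 33 and 40, and the value was 0.45 (SE 0.21, adjusted p = 0.164).

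Rab3ip, an exchange factor for Rab8 also known as Rabin8, was the one member that fell, from 16, 14, 17 and 17 FPKM with PBS to 9, 8 and 4 with LPS at 3 months. The groups did not overlap, and the log2 fold change was -1.15 (SE 0.30, adjusted p = 0.0120). Without LPS replicate 3 it was -0.84 and did not pass. These levels are near the lowest of the table. At 14 months the value for Rab3ip was -0.56 (SE 0.25, adjusted p = 0.255) and at 24 months -0.80 (SE 0.32, adjusted p = 0.0998), neither of which passed.

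At 14 months Snx1, a retromer-linked sorting nexin that forms tubules, was the only member called (1.92% of members, against 1.81% of all genes, or 1.4% for higher genes alone). Its PBS libraries were at 44, 48, 49, 45 and 40 FPKM and its LPS libraries at 55, 69, 68, 78 and 83. All LPS libraries were above all PBS libraries, and the log2 fold change was 0.62 (SE 0.14, adjusted p = 0.0220), close to the required fold. With a pseudocount of 5 it was 0.58 and with equal library totals 0.57, neither of which passed. It was also not called without PBS replicate 5 or LPS replicate 3, 4 or 5, at between 0.56 and 0.63. At 3 and 24 months Snx1 had values of 0.18 (SE 0.17) and 0.04 (SE 0.19), with adjusted p = 0.554 and 0.900. Its partners Snx2, Snx5 and Snx6 were not called at 14 months, with values of 0.30 (SE 0.20), -0.40 (SE 0.12) and -0.01 (SE 0.15).

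Rab3il1, the highest member, also passed the adjusted p at 14 months, though not the fold. Its PBS libraries were at 511, 443, 399, 573 and 467 FPKM and its LPS libraries at 780, 659, 651, 656 and 600. The groups did not overlap, and the log2 fold change was 0.49 (SE 0.11, adjusted p = 0.0194). At 3 and 24 months it was 0.19 (SE 0.13, adjusted p = 0.372) and 0.11 (SE 0.14, adjusted p = 0.635).

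At 24 months Rab27a joined Rab20 and Snx18, so that 3 members were called (5.77%), all higher, where 9.7% of all genes were called and 4.27% were called higher. Rab27a, which docks secretory vesicles and exosomes at the plasma membrane, was at 26, 28 and 20 FPKM with PBS and at 41, 33 and 57 with LPS. The groups did not overlap, and the log2 fold change was 0.78 (SE 0.22, adjusted p = 0.0258), which fell below the test without PBS replicate 1 or 3 or LPS replicate 1 or 3, at between 0.57 and 0.82. At 3 months the value for Rab27a was 0.56 (SE 0.20, adjusted p = 0.0739), with PBS libraries at 26, 33, 34 and 27 and LPS libraries at 37, 49 and 48. At 14 months it was 0.28 (SE 0.17, adjusted p = 0.451).

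**Figure D2:**
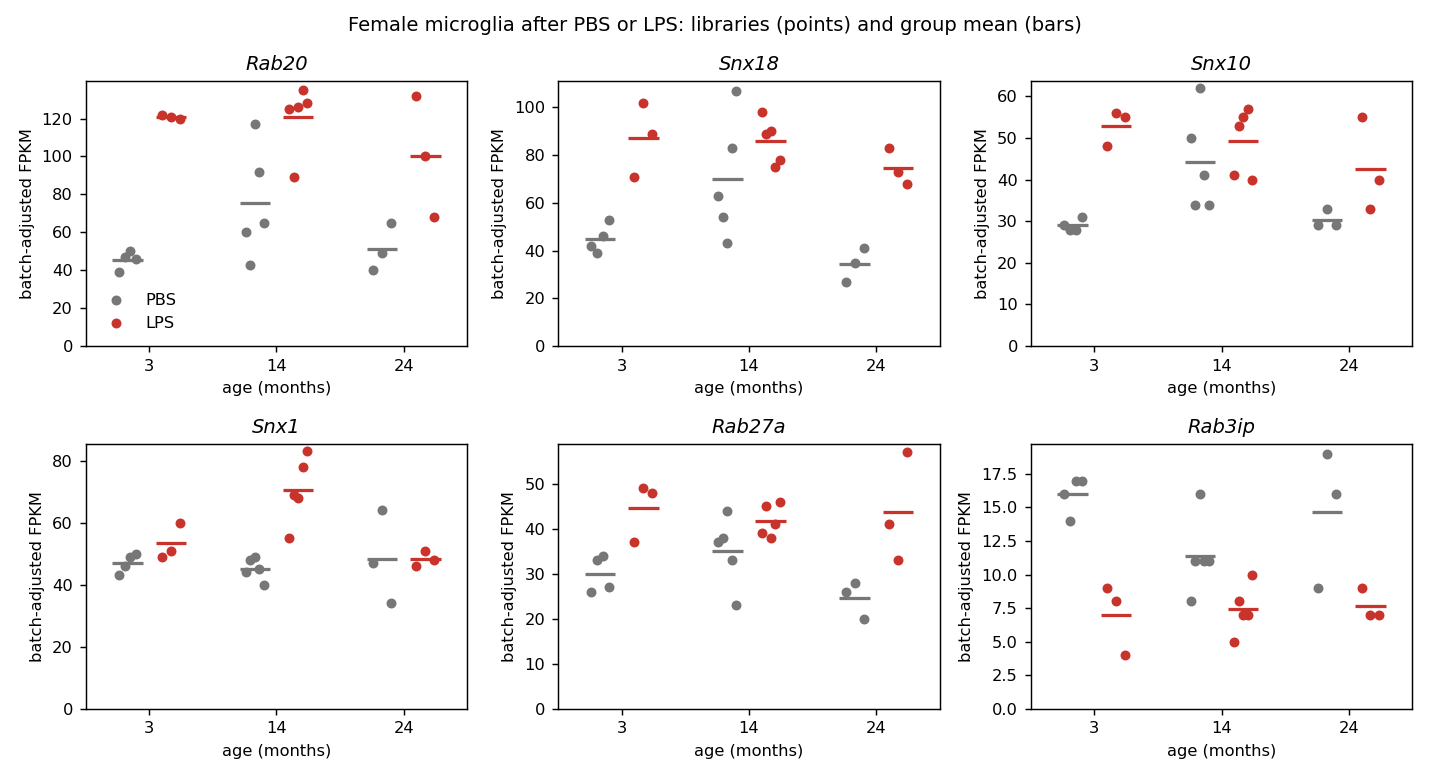
Level of 6 members in female microglia after PBS (grey) or LPS (red) at 3, 14 and 24 months, in batch-adjusted FPKM; each point is 1 mouse and each bar the group mean. Rab20 at 3 months (39 to 50 against 120 to 122) and Snx18 at 24 months (27 to 41 against 68 to 83) are separated, whereas at 14 months the PBS libraries of Rab20, Snx18 and Snx10 reach into the LPS range.

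The PBS means of these genes also varied between ages. For Rab20 the PBS mean was 45.5 ± 4.65 FPKM at 3 months (SD, n = 4), 75.4 ± 29.2 at 14 months (n = 5) and 51.3 ± 12.7 at 24 months (n = 3), while the LPS means were 121 ± 1.00, 121 ± 18.1 and 100 ± 32.0. For Snx18 the PBS means were 45.0 ± 6.06, 70.0 ± 25.4 and 34.3 ± 7.02 and the LPS means 87.3 ± 15.6, 86.0 ± 9.41 and 74.7 ± 7.64. The response of Rab20 was smaller by 0.66 (log2, SE 0.33) at 14 than at 3 months and by 0.47 (SE 0.37) at 24 than at 3 months, with adjusted p = 0.509 and 0.648 for these differences. No member was called by limma for a difference in response at 14 against 3 months (0.301% of all genes) or at 24 against 3 months (0.0%). With the unadjusted p and the fold 1 member passed in each, Snx10 at -0.67 (SE 0.26) and Snx13 at 0.84 (SE 0.35), both chosen for these values, where 8.04% and 10.2% of all genes passed. A difference between ages was thus not shown for any member.

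The markers of early, late and recycling endosomes gave no call after LPS. Rab5a had log2 values of 0.08 (SE 0.28), -0.34 (SE 0.23) and -0.09 (SE 0.30) at 3, 14 and 24 months. Rab5b had -0.33 (SE 0.26), 0.12 (SE 0.21) and -0.63 (SE 0.28), and Rab5c 0.35 (SE 0.37), 0.38 (SE 0.31) and -0.68 (SE 0.40). Rab7 had -0.13 (SE 0.18), -0.08 (SE 0.15) and -0.31 (SE 0.19). Rab11a had -0.07 (SE 0.16), 0.04 (SE 0.14) and 0.10 (SE 0.18), and Rab4b had 0.36 (SE 0.17), 0.16 (SE 0.14) and -0.21 (SE 0.18). Rab32 had -0.01 (SE 0.23), -0.01 (SE 0.19) and 0.08 (SE 0.25), and Snx3 -0.08 (SE 0.15), -0.03 (SE 0.12) and -0.13 (SE 0.16).

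With age, the 2 sorting nexins Snx5 and Snx6 were lowest in 12-month-old females, Rab20 was highest at 16 months, and Snx10 at 14 and 16 months. Across the 7 ages of PBS-treated females 5 members were called (9.62%), where 14.8% of all genes were. By the direction of their largest change from 3 months 3 were higher (5.21% of all genes) and 2 lower (9.6% of all genes). In males 1 member was called (1.92%), where 8.36% of all genes were.

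Against 3 months, females had no called member at 6 months (0.301% of all genes), 9 months (2.66%), 14 months (3.31%) or 24 months (2.09%). There were 4 at 12 months (7.69%, against 9.07% of all genes), all lower (7.76% of all genes). There were 3 at 16 months (5.77%, against 9.01%), with 2 higher (3.01% of all genes) and 1 lower (6.0%). Under both scalings the calls at 16 months were 2 higher and 0 lower and those across ages 2 higher and 0 lower. Males had none at 6 months (0.0% of all genes), 9 months (0.0354%), 12 months (0.903%), 16 months (6.29%), 19 months (3.05%) or 24 months (2.85%). With the unadjusted p and the fold, 3 members passed at 24 months in females (10.9% of all genes) and 2 in males (7.05% of all genes), below the background share in both. The median log2 change at 24 months was -0.04 for members and -0.02 for all genes in females, and 0.08 and 0.10 in males.

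**Figure D3:**
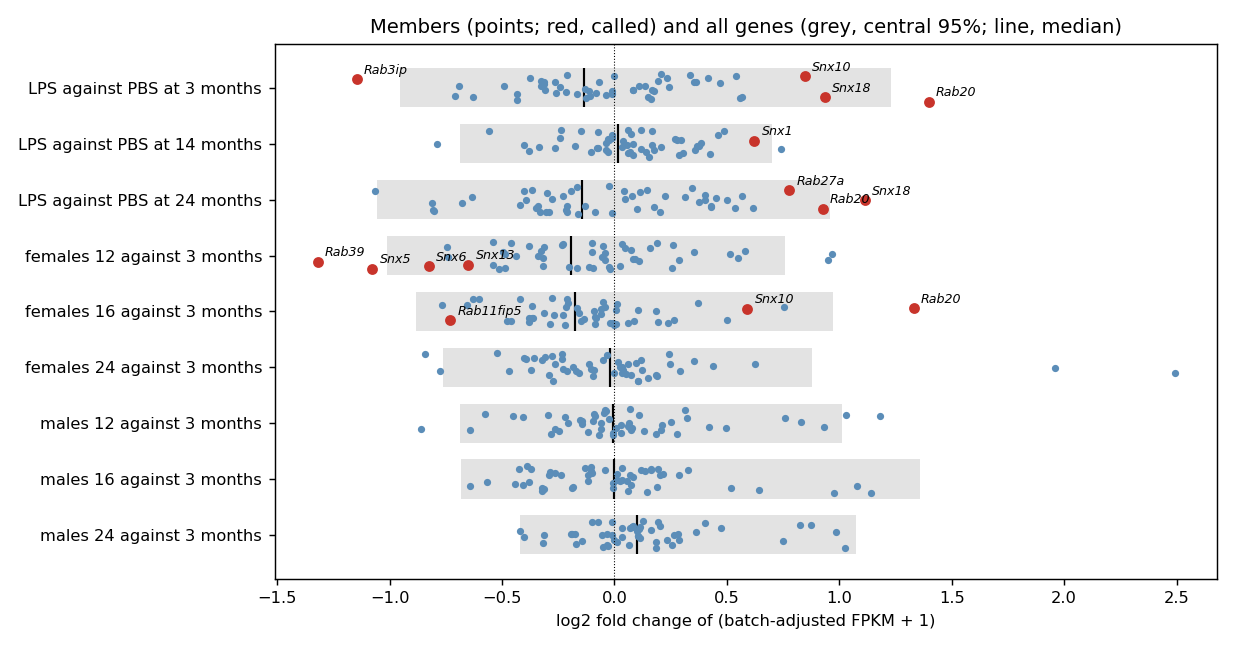
Log2 fold change of the 52 members (points) in 9 comparisons, with those called in red and named; the grey bar spans the central 95% of all 5647 genes and the black line is their median. Most members lie inside the grey bars, and no member is called at 24 months in either sex or in males at 12 or 16 months.

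Snx5 and Snx6 dimerize with Snx1 or Snx2 to tubulate endosomes. Snx5 was at 233, 262, 237 and 261 FPKM in 3-month-old females and at 101, 168, 66 and 167 at 12 months. The groups did not overlap, and the log2 fold change was -1.08 (SE 0.22, adjusted p = 0.00482). The later female means were between 173 and 207, and across the ages the test gave F = 4.67 (adjusted p = 0.0228). Snx6 was at 122, 132, 140 and 128 at 3 months and at 68, 83, 58 and 87 at 12 months, also without overlap, with a log2 fold change of -0.83 (SE 0.16, adjusted p = 0.00432) and F = 4.93 across ages (adjusted p = 0.0193). Over all genes the median change at 12 months was -0.19, and with libraries scaled by median ratios, which brought that median to 0.00, both were still lower at 12 months, but neither was called across the ages. Snx5 was also lost across the ages without 3-month replicate 2 or 12-month replicate 1.

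The other members of this sorting complex had smaller values at 12 months in females. Snx2 had -0.49 (SE 0.16, adjusted p = 0.0455), which passed the adjusted p but not the fold, Snx1 -0.10 (SE 0.21) and Snx3 -0.17 (SE 0.14). Of the retromer core, which carries cargo, Vps35 fell by 0.65 (log2, SE 0.18, adjusted p = 0.0255), from 87, 104, 99 and 81 FPKM at 3 months to 51, 47, 54 and 90 at 12 months, with 1 overlapping library. Vps26a had -0.22 (SE 0.18) and Vps29 -0.30 (SE 0.20). In the test across the ages of females Vps35 was not called (adjusted p = 0.0907). In males of 12 months, with 2 mice, Snx5 had -0.12 (SE 0.26), Snx6 -0.41 (SE 0.19) and Snx2 -0.64 (SE 0.23), none of them called. Between 16 and 3 months in females Snx5 had -0.28 and Snx6 -0.37, also not called.

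Also lower in females of 12 months were Rab39, a Rab of phagosome maturation, and Snx13, which has a regulator of G protein signalling domain. Rab39 was at 25, 25, 24 and 24 FPKM at 3 months and at 3, 16, 9 and 15 at 12 months, with a log2 fold change of -1.32 (SE 0.35, adjusted p = 0.0196) that without 12-month replicate 1 was -0.87 and did not pass. Snx13 was at 24, 26, 20 and 23 and then at 12, 14, 15 and 17, with -0.65 (SE 0.19, adjusted p = 0.0300). Neither gene overlapped between the groups, and neither passed under median-ratio scaling, at -1.13 and -0.46. Rab39 was also lost without 3-month replicate 2, and Snx13 without 5 of the 8 libraries, at between -0.65 and -0.57.

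All 4 members lower at 12 months have transcripts of low GC content, at percentiles 17.4 for Snx5, 13.8 for Snx6, 4.93 for Rab39 and 2.25 for Snx13. Low GC content was not confined to them. Rab8b at percentile 3.61, Rab1a at 7.09, Rab18 at 7.59 and Rab5a at 7.91 were among the members not called at 12 months. Of these, Rab1a had its lowest PBS group mean in 12-month-old females, as had Snx2 at percentile 9.43, Snx14 at 12.7 and Snx4 at 13.8. Rab8b, Rab18 and Rab5a had theirs in other groups. So had Rab14 at 9.97, Rab6a at 14.5, Rab2a at 15.6, Rab10 at 16.0 and Rab11a at 17.4. The mean log2 level of the genes in the highest GC quartile exceeded that of the lowest by 0.17 ± 0.09 (SD, n = 4) in females of 3 months and by 0.56 ± 0.28 (n = 4) at 12 months, the largest mean difference of the 17 groups. The summed microglial and border-associated macrophage markers were also lower at 12 than at 3 months without overlap, as given above. The part of these shifts in the 12-month calls was not tested.

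Rab20 was the one member called across the ages in both sexes. In females it was at 39, 47, 50 and 46 FPKM at 3 months and at 187, 133, 136, 92 and 66 at 16 months. The groups did not overlap, with a log2 fold change of 1.33 (SE 0.30, adjusted p = 0.00530) and F = 4.13 across ages (adjusted p = 0.0343). The call against 3 months held without any 1 library, at between 1.16 and 1.53, whereas the call across ages was lost without any one of 9 libraries, those of 3 months included. At 24 months its female libraries, at 40, 49 and 65, were back among those of 3 months, with a value of 0.15 (SE 0.34, adjusted p = 0.859). In males Rab20 gave F = 5.07 across ages (adjusted p = 0.0179). Its male libraries were at 41, 97, 29 and 51 at 3 months, at 79, 50, 72 and 82 at 6 months, at 124, 72, 133 and 75 at 9 months, at 58 and 12 at 12 months and at 122, 92, 158 and 69 at 16 months. They were at 39, 39, 58, 80 and 56 at 19 months and at 102, 90, 159 and 65 at 24 months. The male means were thus higher at 9, 16 and 24 months than at 12 and 19 months, with some overlapping libraries, and no male age passed against 3 months, with 1.08 (SE 0.38, adjusted p = 0.0894) at 16 months as the largest value. Without 12-month replicate 2, the library at 12, the male call across ages was lost, and so it was when only libraries without values between 0 and 1 were used, with a value of 0.73. That setting held no male library of 6 or 9 months and only replicates 1 and 2 of 3 months. It thus tested fewer ages and cannot be set beside the full result as a like test.

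The summed neutrophil markers of males were between 2682 and 4555 at 3 months, 1214 and 1788 at 9 months and 7438 and 12234 at 12 months. They were between 8904 and 31716 at 16 months, 6994 and 13151 at 19 months and 5507 and 10259 at 24 months. The monocyte markers of males summed to between 93 and 130 at 3 months, 41 and 82 at 9 months and 323 and 340 at 12 months. The range was 212 to 597 at 16 months, 177 to 318 at 19 months and 171 to 387 at 24 months. The part of both marker sets in the male values was not tested.

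The level of Rab20 reached in PBS-treated 16-month-olds, 123 ± 46.3 FPKM in females (SD, n = 5) and 110 ± 38.5 in males (n = 4), was like the 121 ± 1.00 of LPS-treated 3-month-old females (n = 3), and the libraries overlapped. These groups were not tested against each other.

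Snx10 was at 29, 28, 28 and 31 FPKM in 3-month-old females, at 19, 29 and 15 at 9 months, at 50, 34, 62, 41 and 34 at 14 months and at 49, 49, 41, 37 and 46 at 16 months. The libraries of 16 months were all above those of 3 months, with a log2 fold change of 0.59 (SE 0.18, adjusted p = 0.0331), only just past the fold, and those of 9 months lay at or below 29. With a pseudocount of 5 it was 0.53, and it was not called then or without any one of 8 of the 9 libraries. Across ages it had the largest F of the members, 7.22 (adjusted p = 0.00396), a call that was lost with a pseudocount of 5, where the largest change was 0.53, and without 3-month replicate 2 or 3 or 16-month replicate 1, 2 or 5, at between 0.55 and 0.58. At 24 months it was at 29, 33 and 29. In males the means of Snx10 ran from 31.0 ± 12.7 at 12 months (n = 2) to 46.8 ± 16.8 at 16 months (n = 4), and no call was made. Rab11fip5, an adaptor of Rab11 in recycling, was at 20, 20, 13 and 27 at 3 months and 7, 15, 11, 12 and 13 at 16 months, which overlapped, with -0.73 (SE 0.24, adjusted p = 0.0473), and this call was lost without any one of 7 of the 9 libraries and under both scalings.

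Rab5if was called across ages in females (F = 3.90, adjusted p = 0.0412) with its largest change at 24 months, and Rab24, which was not called and is named here for its wide range after its values were seen, had a like profile. Rab5if was at 13, 12, 25 and 23 FPKM at 3 months and at 86, 71 and 57 at 24 months, which did not overlap, although the value of 1.96 (SE 0.56, adjusted p = 0.0594) did not pass by itself. Its call across ages was lost under both scalings and without any one of 14 libraries. Rab24 was at 9, 9, 13 and 17 and then at 94, 71 and 51, with 2.49 (SE 0.72, adjusted p = 0.0614). Within other female groups both genes varied as widely as between ages. At 12 months Rab24 was at 77, 39, 7 and 13 and Rab5if at 78, 52, 21 and 17, and at 9 months Rab24 was at 76, 7 and 3 and Rab5if at 44, 7 and 11, so that the same library was highest for both. In males Rab24 was at 31, 11, 9 and 12 at 3 months and at 49, 3, 68 and 61 at 24 months, with 1.02 (SE 0.59, adjusted p = 0.482), and Rab5if had 0.82 (SE 0.43, adjusted p = 0.425).

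Both genes lie on the short side, with coding transcripts of a median of 811 bases for Rab24 and 1045 bases for Rab5if. These are at percentiles 15.6 and 26.2 of the genes measured. The shortest length quartile ends at 1004 bases, so Rab5if lies just outside it. Genes of the shortest length quartile exceeded those of the longest by a mean of 0.76 ± 0.06 (log2 level, SD) in 3-month-old females and 1.07 ± 0.09 at 24 months. In 16-month-old females this difference was 0.89 ± 0.10, and in 16-month-old males 1.07 ± 0.11. The lengths are medians over the annotated coding transcripts of a gene and need not be those of the transcripts expressed. Among other members short by this measure, Rab11a at percentile 3.41 had female means of 94.8 FPKM at 3 months and 79.0 at 24 months. Snx17 at percentile 12.8 had 129 and 130, and Rab1b at percentile 14.5 had 92.8 and 112. Snx15, between Snx17 and Rab1b in length, had 14.0 and 16.0, the latter its highest PBS group mean. The part of transcript length in the values of Rab24 and Rab5if was not tested.

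**Figure D4:**
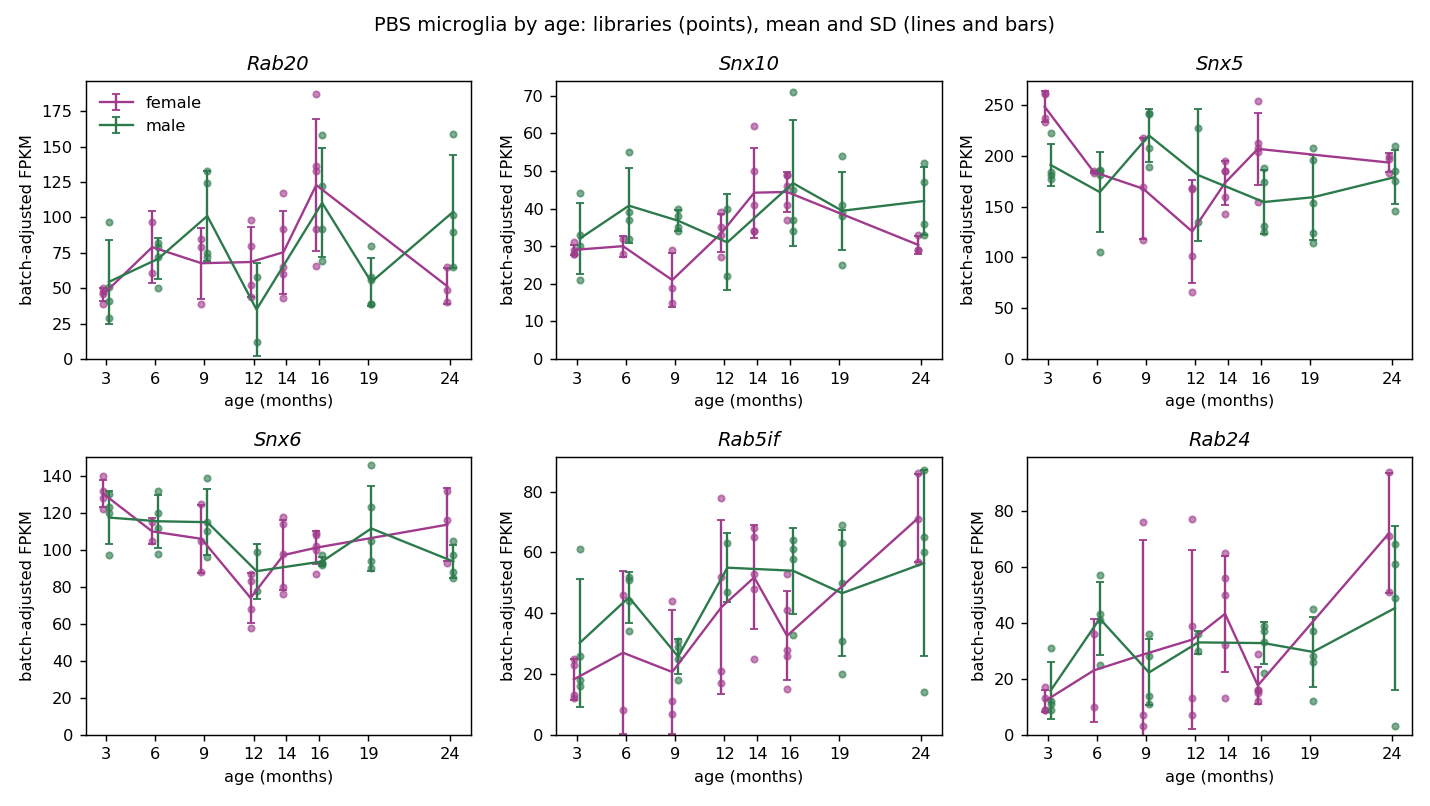
Level of 6 members in PBS-treated females (purple) and males (green) by age in months, in batch-adjusted FPKM; points are mice, lines join group means and bars are SDs, cut at 0 where they would pass below it. Snx5 and Snx6 are lowest in females at 12 months (means 126 and 74.0), Rab20 has its highest female mean at 16 months (123), Snx10 is at like means at 14 and 16 months (44.2 and 44.4), and Rab5if and Rab24 have their highest female means at 24 months (71.3 and 72.0).

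At 24 against 3 months the endosome markers gave no call in either sex. In females Rab5a had 0.62 (log2, SE 0.31), Rab5b -0.18 (SE 0.29), Rab5c 0.44 (SE 0.32), Rab7 0.10 (SE 0.19), Rab11a -0.27 (SE 0.16), Rab4b 0.36 (SE 0.20), Rab27a -0.28 (SE 0.24), Rab32 -0.05 (SE 0.21) and Snx3 0.11 (SE 0.15). The smallest adjusted p among these was 0.272, for Rab5a. In males Rab5c had 0.87 (SE 0.33, adjusted p = 0.202), Rab5a 0.20 (SE 0.25), Rab7 0.07 (SE 0.15), Rab11a -0.17 (SE 0.15), Rab32 0.23 (SE 0.15) and Snx3 0.10 (SE 0.13). Rab7, for example, was at 246, 232, 238 and 232 FPKM in 3-month-old females and at 316, 266 and 193 at 24 months, and the groups overlapped.

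Sex gave no call among the members. Over the 6 shared ages no member was called between males and females, where 0.23% of all genes were. With the unadjusted p and the fold 0 members passed, where 0.673% of all genes did. The values ran from -0.42 (SE 0.13, adjusted p = 0.0823) for Rab11fip5 to 0.54 (SE 0.23, adjusted p = 0.218) for Rab5if, negative where females were higher. The change from 3 to 24 months did not differ between the sexes in a called member either (0.0177% of all genes). By the unadjusted p and the fold 1 member passed, where 7.05% of all genes did. It was Snx29 with 0.95 (SE 0.39, adjusted p = 0.508).

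Other genes of the same routes, taken as 1 set, were called at shares near or below those of all genes. The 180 genes listed held Rab cofactors and regulators, retromer, retriever and WASH subunits together with COMMD and CCDC proteins, and ESCRT subunits. They also held HOPS and CORVET tethers, endosomal phosphoinositide kinases with their partners and phosphatases, and endosomal SNAREs, and 108 were measured. At 12 against 3 months in females 9 were lower and 0 higher (8.33%, against 9.07% of all genes). Among them were Gdi2, which extracts Rabs from membranes, at -0.68 (SE 0.15, adjusted p = 0.00812), Rin2, an exchange factor for Rab5, at -0.89 (SE 0.20, adjusted p = 0.00812), and the COMMD subunits Commd3 at -0.84 (SE 0.21), Commd6 at -0.96 (SE 0.21) and Commd8 at -0.99 (SE 0.32). At 16 months 8 were lower and 0 higher (7.41%, against 9.01%), at 14 months 3 were lower (2.78%, against 3.31%) and at 9 months 2 were lower (1.85%, against 2.66%). None was called at 6 or 24 months in females, and in males 1 was lower at 16 months (0.926%, against 6.29%) and none was called at the other ages. Across ages 8 were called in females (7.41%, against 14.8%) and 2 in males (1.85%, against 8.36%), the latter Dennd4a and Rilpl2, with largest changes of -1.06 and -0.92.

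By list, where 7.76% of all genes were lower, females of 12 months had 4 lower genes of 34 measured Rab cofactors and regulators. In the list of retromer, retriever and WASH with COMMD and CCDC proteins, 4 of 21 were lower (19.0%). These were Vps35, Commd3, Commd6 and Commd8. There was 1 of 24 in ESCRT (Chmp5), and 0 of 7 in the tether list, 0 of 7 in the phosphoinositide list and 0 of 15 in the SNARE list. LPS at 3 months gave 2 higher and 1 lower (2.78%, against 11.2% of all genes). The higher genes were Rabgef1, an exchange factor for Rab5, at 0.76 (SE 0.22, adjusted p = 0.0267), and Rabggtb, the subunit of the transferase that attaches lipids to Rabs, at 0.96 (SE 0.29, adjusted p = 0.0276), and the lower one was Commd8 at -0.80 (SE 0.18, adjusted p = 0.00380). At 14 months 0 were called, and at 24 months 1 was higher and 5 lower (5.56%, against 9.7%). The higher one was Dennd4a, an exchange factor for Rab10, at 1.03 (SE 0.20, adjusted p = 0.00393). The lower ones were Chmp6, Rabif, Commd9, Rabac1 and Vps39, from -1.18 to -0.64. The median log2 change of the 108 genes after LPS was -0.20 at 3, -0.00 at 14 and -0.21 at 24 months, beside -0.14, 0.02 and -0.15 for all genes.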

How the data were processed

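RNA of sorted microglia was amplified from oligo-dT primers with template switching. According to the submitters' processing notes and the study's methods, the authors used mm10 as the genome with HISAT2 2.0.4, aligned to coding genes with Bowtie2 2.2.5 and obtained FPKM from RSEM 1.2.12. They adjusted all libraries for batches with ComBat_seq and removed genes averaging under 10. The values as deposited by the authors are therefore scores, that is batch-adjusted FPKM rounded to whole numbers except 297, and not counts. The batches are not named in the sources used here, and depth is unknown.

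Groups follow the sample titles. Values were taken as log2(value + 1) and fitted with limma 3.58.1 in R 4.3.3 (moderated variances with a trend), separately for females, males, the LPS experiment and the sexes over 6 shared ages. p-values were adjusted by Benjamini-Hochberg over 5647 genes. The method was tested on simulated data. The members and lists were chosen with earlier results of these data known. Named genes are those called at 24 against 3 months, under LPS, between sexes or in interactions, those called across ages, the 5 highest and 5 lowest in level, and fixed markers of endosomal steps with their relatives. Others called at 12 and 16 months are also given. Replicates with the same number in the sample titles were not paired, since their residuals had median correlations between -0.0044 and 0.014. Single pairs ran from -0.4 to 0.4. The deposited column names number some libraries otherwise. Pairing by those numbers was not examined, here or in the replicate block. No 2 libraries were identical, and replicates correlated at 0.84 to 0.979. Single-cell and protein measurements were not used here. Alternatives were a pseudocount of 5, a mean of at least 50, median-ratio scaling, equal totals, unadjusted p, the adjusted p alone, a replicate block, leaving out each library and, in males, only libraries without values between 0 and 1.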

Additional observations from a re-analysis of the deposited data

How the results depend on the processing

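Of 388 recomputed counts of called members 317 stayed within 1.5 times the count reported and 71 did not. The 317 include counts of 0 that stayed at 0, and most comparisons had 0 called members, so this share does not measure the stability of the calls. With a pseudocount of 5 the LPS count at 14 months went from 1 to 0, females at 16 months from 3 to 1, at 24 months from 0 to 2 and at 9 months from 0 to 1. With genes of a mean of at least 50 alone, LPS at 14 months gave 2, LPS at 3 months 2, females at 12 months 2, females at 16 months 1 and females across ages 3. Median-ratio scaling gave 2 at 12 months, 1 at 14 months and 2 across ages in females and 1 at 19 months in males, and equal totals gave the same numbers and 0 for LPS at 14 months and 2 across ages in males. With unadjusted p and the fold the counts were 3 for LPS at 14 months (5.99% of all genes) and 7 at 24 months (19.8%). They were 1 for each difference in LPS response (8.04% at 14 and 10.2% at 24 months) and for the difference of ageing between the sexes (7.05%). In females they were 3, 3, 5, 6 and 3 at 6, 9, 14, 16 and 24 months (8.15%, 12.7%, 11.4%, 14.8% and 10.9% of all genes). In males they were 2, 4, 2, 2, 1 and 2 from 6 to 24 months (3.21%, 4.82%, 8.48%, 10.3%, 6.16% and 7.05%). In males across ages the adjusted p alone gave 3. Only libraries without values between 0 and 1, which left out 6 and 9 months, gave 0. Leaving out single libraries gave ranges of 0 to 2 for LPS at 14 months, 1 to 4 at 24 months, 2 to 5 for females at 12 months, 1 to 3 at 16 months, 0 to 1 at 9 months and 1 to 7 across ages, and of 0 to 4 for males across ages, 0 to 1 at 16 months and 0 to 2 at 24 months. The cause of these moves was not tested. A replicate block gave 6 members across ages in females and changed no other count. Among the changes of single genes none reversed, and 303 of 390 values kept their call while 87 lost it. Without a known depth or named batches, neither could be used to bound a value.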
